A study of Mus musculus with 12 samples.

Results

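RNA-Seq of mouse hippocampal cultures was used to ask whether the lower β-actin mRNA level after MG132 was shared by other genes of the actin cytoskeleton. The list held 10 genes of the 27179 in each count table. They encode the cytoplasmic actins (Actb, Actg1), 2 cofilins (Cfl1, Cfl2), 2 profilins (Pfn1, Pfn2), 2 β-thymosins (Tmsb4x, Tmsb10), a subunit of the Arp2/3 complex (Arpc2) and serum response factor (Srf). They were chosen by name, through the Entrez identifiers in the files. The Actb level after MG132 prompted the question, so it is described here with its spread and without a test, and shared behaviour was counted over the other members.

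Primary neurons came from the hippocampi of newborn mice, C57BL/6 by the labels, while the study's methods for such cultures also name FVB. They were cultured for 17 to 18 days on porous inserts, which leave somas on one face and let axons and dendrites (neurites) grow through. Somas and neurites were each sequenced from Ctrl and from MG132 cultures, giving 4 groups of 3 libraries. MG132, a proteasome inhibitor, was given at 10 µM for 7 h, and Ctrl cultures received its solvent, DMSO. Nothing in the labels says that same-group libraries came from separate animals, so p-values measure the spread between these libraries.

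Actin monomers assemble into filaments that shape dendritic spines and growth cones. Profilin feeds monomers to growing ends, cofilin severs and disassembles old filaments, β-thymosin holds monomers in reserve, and the Arp2/3 complex starts new branches. SRF is the transcription factor that binds the CArG box and drives many actin genes. Its cofactors of the MRTF family are held back by free actin monomers, so that actin assembly and actin gene transcription are coupled. β-actin mRNA is a classic example of an mRNA carried into dendrites and growth cones.

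The libraries held 4247610 to 22166347 counted reads. A single gene took 12.4% to 33.4% of the counts, and mitochondrially encoded genes took another 9.78% to 29.2%. Levels are given in CPM, reads scaled to a common library size by TMM normalization, with factors from 0.5671 to 1.443. Calls rest on edgeR's quasi-likelihood test over 14185 genes at a Benjamini-Hochberg adjusted p under 0.05, without a fold threshold. Of the 10 members 9 passed the count filter, and Tmsb4x did not. Each of the 5 heat shock genes used to check the treatment (Hspa1a, Hspa1b, Hspa8, Dnajb1, Bag3) rose in both fractions. Nuclear RNAs used to check the fractions (Malat1, Meg3, Snhg11) were lower in neurites in 3 of 3 tests with and without MG132. The dendritic mRNAs Camk2a, Ddn and Shank1 gave 0 calls of 3 (edgeR) between the fractions.

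The cultures were not only neurons. No marker gene of neurons, astrocytes, oligodendrocytes, microglia or fibroblast and vascular cells was at 0 in all 12 libraries. The 9 microglia markers summed to 685 to 877 CPM in Ctrl somas, against 216 to 372 CPM in MG132 somas. In neurites they summed to 699.8 to 1326 CPM in Ctrl and 118 to 285 CPM after MG132. Their summed levels did not overlap between treatments in either fraction, and 5 of 9 genes in somas and 8 of 9 in neurites were called lower. Across all tested genes 11.9% were called lower in somas and 12.3% in neurites. Groups did not overlap, in either direction, for 45.9% of all genes in somas and 40.9% in neurites. Cx3cr1, the microglial fractalkine receptor, averaged 227 CPM in Ctrl somas but 3.81 CPM in MG132 somas. Astrocyte markers summed to 3378 to 4586 CPM in Ctrl somas against 1891 to 2663 CPM in MG132 somas, and 5 of 7 were called lower there, with 2 of 7 in neurites. Fibroblast and vascular markers were called lower in 6 of 6 tests in somas and 4 of 6 in neurites, and oligodendrocyte markers in 3 of 7 in each. Of the 8 neuron markers 0 were called with MG132 in either fraction, with summed levels of 977 to 1434 CPM in Ctrl somas and 799.9 to 1316 CPM in MG132 somas. These marker levels moved with the treatment that is compared for each actin gene, and their part in the results was not tested. In such bulk samples fewer cells of a type and less RNA per cell cannot be told apart.

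**Figure D1:**
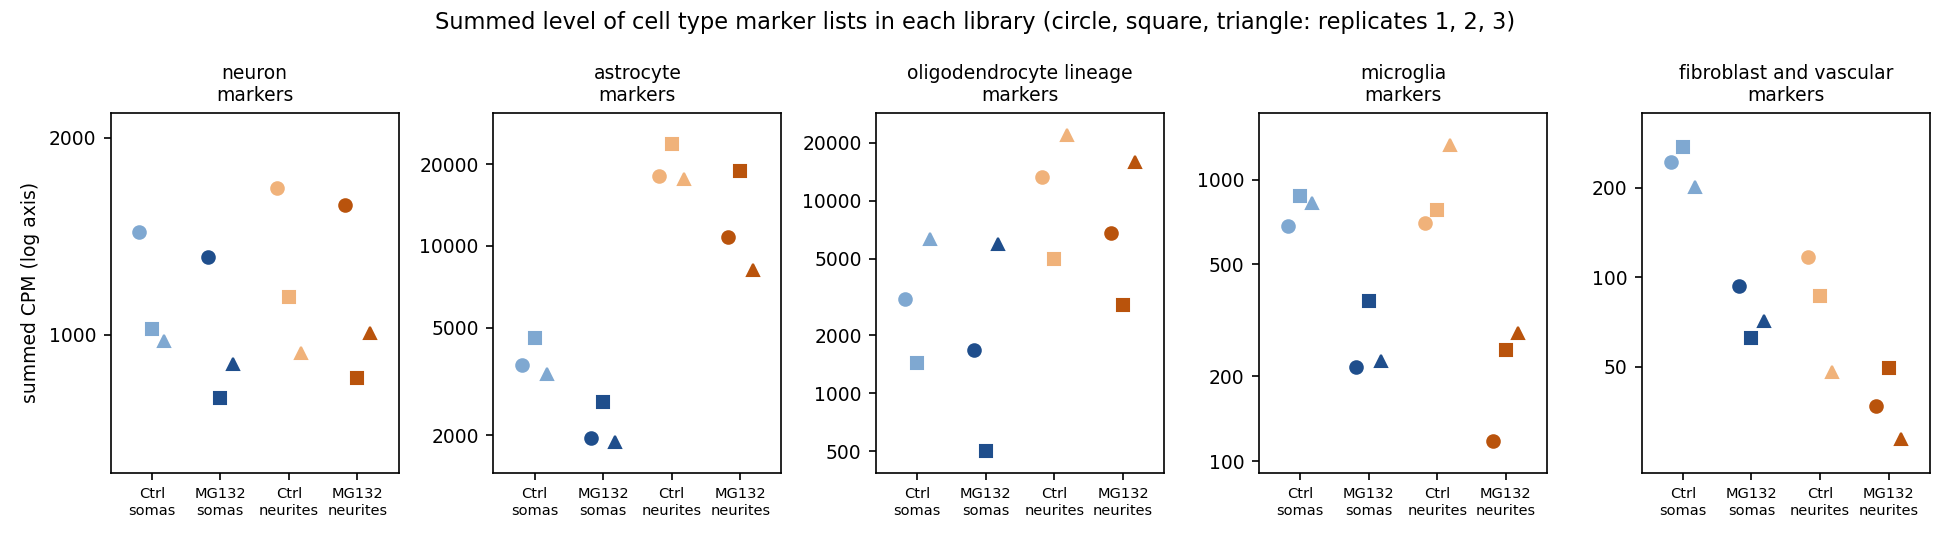
Summed CPM of 5 marker lists in each of the 12 libraries, on a log axis, with circles, squares and triangles for replicates 1, 2 and 3. Microglia markers sit at 685 to 877 CPM in Ctrl somas, and at 216 to 372 CPM in MG132 somas, while neuron markers overlap between treatments.

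Promoter sequence is shown for Srf and Actg1 because these were the 2 members with a CArG box in the windows searched, and their values are given below. The windows ran from 250 bases before to 50 bases after each annotated start (RefSeq, GRCm38.p6), and 9 of the 10 members had at least 1, all but Actb. The CArG box, the core of the serum response element, has a palindromic form, so that a match on one strand is a match on both. It was found in 2 of the 9 members with a window and in 1.63% of all 32851 windows. A member counted if any of its windows matched, while the share is by window, so these are unlike measures. The stretches below are the 120 bases before the start, 5′ to 3′ on the gene's strand, with CArG boxes in capitals. Srf lies on the minus strand at chr17:46556163-46556282 and holds 2 boxes, and Actg1 lies on the minus strand at chr11:120348496-120348615 and holds 1.
Srf: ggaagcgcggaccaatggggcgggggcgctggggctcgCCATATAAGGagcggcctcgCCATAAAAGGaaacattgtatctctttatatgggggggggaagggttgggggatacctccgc
Actg1: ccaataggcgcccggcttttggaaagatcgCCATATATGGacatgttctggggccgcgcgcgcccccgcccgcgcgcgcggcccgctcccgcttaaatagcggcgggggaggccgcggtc
Of 15 SRF target genes listed for comparison, 9 had a window and 4 held a CArG box. For Vcl (vinculin) and Cnn2 (calponin 2), whose values follow below, the 30 bases around the box lie on the plus strand at chr14:20929161-20929190 and chr10:79988534-79988563.
Vcl: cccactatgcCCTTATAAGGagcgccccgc
Cnn2: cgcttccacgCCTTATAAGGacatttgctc
A match is a description of these letters and not evidence of a bound factor.

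Actb (Entrez 11461, chr5:142903115-142907976) was the most abundant member per kilobase of transcript in 3 of the 4 groups, MG132 neurites being the exception. Its level in Ctrl somas was 723.5, 685 and 747 CPM in replicates 1, 2 and 3, with a mean of 718 ± 31.4 CPM (SD, n = 3). In MG132 somas it was 273, 291 and 332 CPM, with a mean of 299 ± 30.2 CPM (SD, n = 3). Each MG132 soma library was below each Ctrl soma library. The log2 fold change was -1.265 ± 0.19 (SE), a level 58.4% lower. In Ctrl neurites Actb was at 861, 1116 and 1175 CPM, with a mean of 1051 ± 167 CPM (SD, n = 3). In MG132 neurites it was at 270.3, 331 and 394 CPM, with a mean of 332 ± 61.7 CPM (SD, n = 3). The groups again did not overlap, and the log2 fold change was -1.66 ± 0.19 (SE), or 68.4% lower. Leaving out each library in turn gave -1.34 to -1.21 in somas and -1.79 to -1.46 in neurites. The responses of the fractions differed by -0.40 ± 0.26 on the log2 scale (SE). This difference is computed from the values that prompted the question, so it is likewise given without a test. Of all stretches of 75 bases (windows) along the Actb transcript, 2.6% are also found in another gene's transcripts, and RefSeq places Gm38733 over the same locus.

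**Figure D2:**
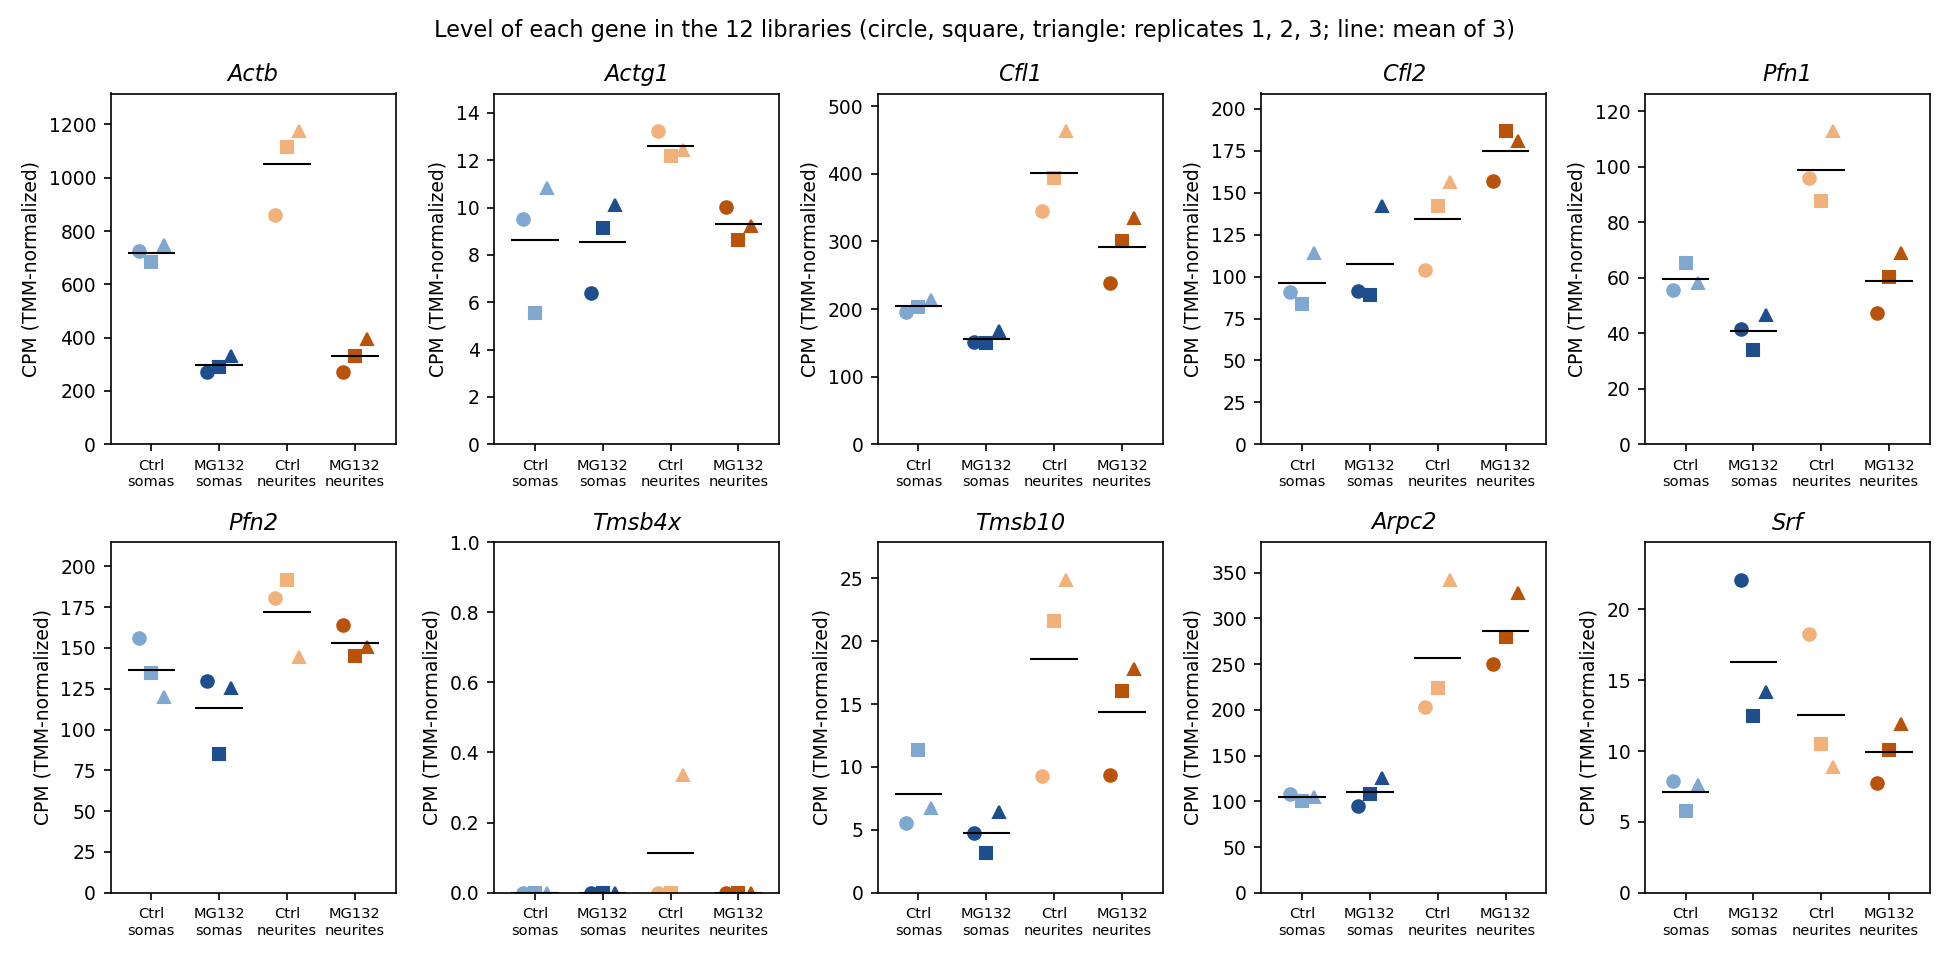
CPM of the 10 genes in each of the 12 libraries, each panel from 0, with circles, squares and triangles for replicates 1, 2 and 3 and a line at the mean of 3. Actb is at 685 to 747 CPM in Ctrl somas, with 273 to 332 CPM in MG132 somas, whereas Arpc2 and Pfn2 overlap between treatments in both fractions.

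The main test left out the replicate numbers, and few of the other members were called by it. In somas, of the 8 other members tested, Pfn1 fell, Srf rose and 6 were not called. Across all tested genes 11.9% were called lower and 15.5% higher in this comparison, so 1 of 8 in each direction was near the background. In neurites Pfn1 fell and the other 7 were not called, beside 12.3% of all genes called lower and 14.7% called higher. With the replicate number as a block, 2 of the 8 were called lower and 1 higher in each fraction. Of all genes 17.4% were then called lower and 19% higher in somas, and 18.1% and 17.7% in neurites. Groups did not overlap for 3 of the 8 in somas, beside 45.9% of all genes, and for 4 of the 8 in neurites, beside 40.9%. The median log2 fold change of the 8 was -0.14 in somas and -0.35 in neurites, against -0.07 and -0.16 over all genes. Their sum without Actb overlapped between Ctrl somas (609.6 to 636 CPM) and MG132 somas (491 to 638 CPM), and between Ctrl neurites (969.7 to 1266 CPM) and MG132 neurites (884 to 1102 CPM). The share of Actb in the sum of all 10 was 52.9% to 53.99% in Ctrl somas and 33.5% to 37.2% in MG132 somas. In neurites that share was 47.0% to 50.7% in Ctrl and 23.4% to 26.3% after MG132.

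**Figure D3:**
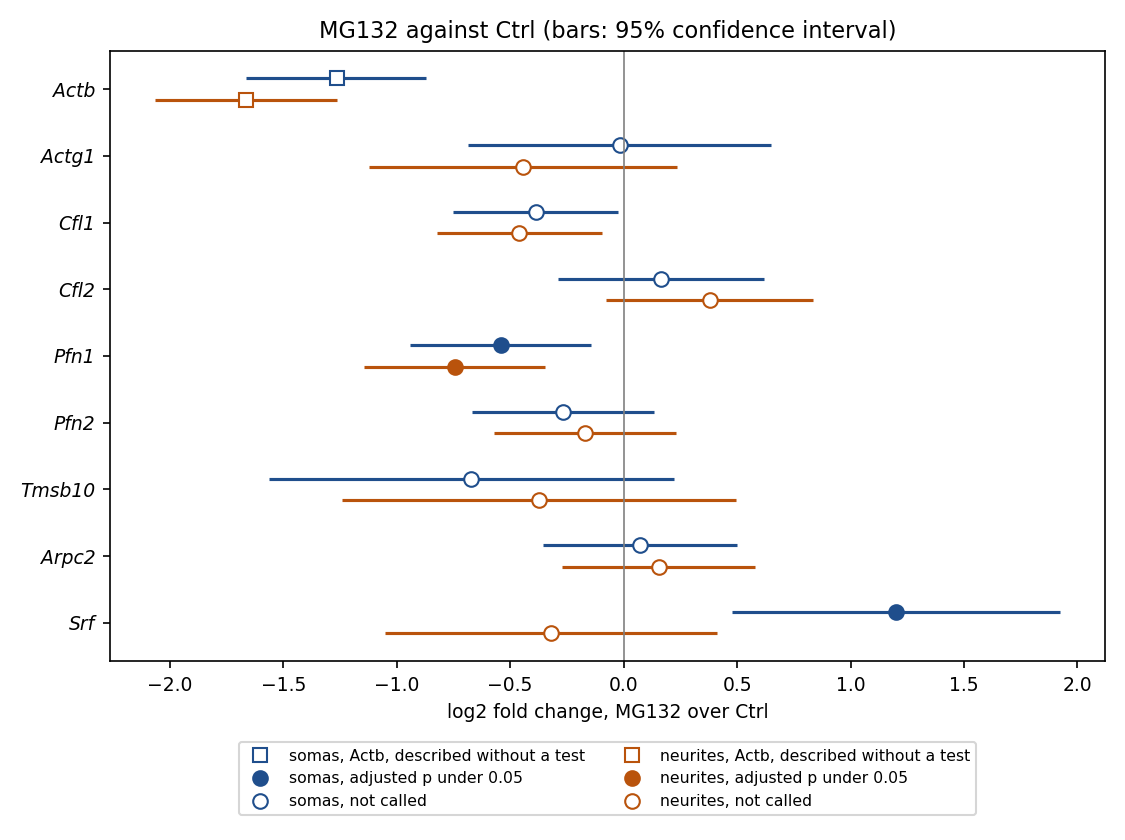
Log2 fold change of MG132 over Ctrl for the 9 tested genes in somas and neurites, with bars for the 95% confidence interval, filled circles for calls (adjusted p under 0.05) and open squares for Actb, which has no test here. Pfn1 lies below 0 in both fractions, at -0.54 and -0.75, and Srf lies at 1.20 in somas and -0.32 in neurites.

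The other cytoplasmic actin, Actg1 (Entrez 11465, chr11:120345687-120348495), encodes γ-actin, which copolymerizes with β-actin. It had 5.54 to 10.8 CPM in Ctrl somas and 6.38 to 10.1 CPM in MG132 somas. These ranges overlapped, and the log2 fold change was -0.017 ± 0.31 (SE, 95% interval -0.68 to 0.65, edgeR adjusted p = 0.975). In neurites it had 12.2 to 13.2 CPM in Ctrl and 8.63 to 10.04 CPM after MG132. Those ranges did not overlap, but the change of -0.44 ± 0.32 (SE) was not called (edgeR adjusted p = 0.326). The Actb to Actg1 ratio per kilobase was 70.2 to 125.5 in Ctrl somas and 32.5 to 43.5 in MG132 somas, without overlap. In neurites the ratio was 66.1 to 96.0 in Ctrl and 27.4 to 43.4 after MG132. The Actg1 counts are uncertain, since 54.5% of its windows are shared with 10 other genes, 9 of them named as pseudogenes.

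Both profilins were tested. Pfn1 (Entrez 18643, chr11:70651844-70656799), the broadly expressed profilin, had 55.4, 65.2 and 58.0 CPM in Ctrl somas and 41.4, 34.1 and 46.6 CPM in MG132 somas. The groups did not overlap, and Pfn1 fell by 0.54 ± 0.19 on the log2 scale (SE, edgeR adjusted p = 0.0428), or 31.3%. That call was narrow: it was lost without MG132 somas replicate 1 or 2, or without any 1 of the Ctrl soma libraries, with adjusted p from 0.0642 to 0.157. Over all alternatives the adjusted p ranged from 0.0112 to 0.239. In neurites Pfn1 had 95.8, 87.7 and 112.8 CPM in Ctrl and 47.2, 60.4 and 68.9 CPM after MG132, again without overlap. It fell there by 0.75 ± 0.19 on the log2 scale (SE, edgeR adjusted p = 0.00857), or 40.3%. Without Ctrl neurites replicate 3 the change was -0.52 (adjusted p = 0.0659), the highest over the alternatives. RefSeq places Eno3 over part of the Pfn1 locus, and no Pfn1 window occurs in another transcript.

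Pfn2 (Entrez 18645, chr3:57841895-57847757), the profilin enriched in neurons, was at 120 to 156 CPM in Ctrl somas and 85.1 to 129.5 CPM in MG132 somas. In neurites it was at 144 to 192 CPM in Ctrl and 145 to 164 CPM after MG132. The treatments overlapped in both fractions. The log2 fold changes were -0.27 ± 0.19 (SE, 95% interval -0.67 to 0.13) in somas and -0.17 ± 0.19 (SE, 95% interval -0.57 to 0.23) in neurites. Neither was called (edgeR adjusted p = 0.318 and 0.538). Per kilobase the Pfn1 to Pfn2 ratio was 1.20 ± 0.20 (SD, n = 3) in Ctrl somas and 0.99 ± 0.11 (SD, n = 3) in MG132 somas, and these ranges overlapped. In neurites it was 1.24 to 2.13 in Ctrl and 0.783 to 1.25 after MG132, which overlapped by a narrow margin. Whether the responses of Pfn1 and Pfn2 differ was not tested.

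Cfl1 (Entrez 12631, chr19:5490455-5494031), the main cofilin outside muscle, stood at the edge of a call. It had 196, 204 and 214 CPM in Ctrl somas and 152, 149 and 167.5 CPM in MG132 somas, without overlap. The log2 fold change was -0.39 ± 0.17 (SE) and was not called (edgeR adjusted p = 0.104). In neurites it had 345, 393 and 463 CPM in Ctrl and 238.2, 301 and 335 CPM after MG132. The log2 fold change there was -0.46 ± 0.17 (SE, edgeR adjusted p = 0.0574). With the replicate number as a block, since the numbers pair the libraries, Cfl1 was called lower in somas (-0.39, adjusted p = 0.0251) and in neurites (-0.46, adjusted p = 0.00879). DESeq2 also called Cfl1 lower in somas and in neurites (adjusted p = 0.0296 and 0.0169). So did edgeR with the gene with the most counts and mitochondrial genes left out of the totals (adjusted p = 0.0388 and 0.0266). DESeq2 size factors in edgeR gave a call in neurites only (adjusted p = 0.0392). Total counts, no count filter and only the groups compared gave no call in either fraction. Over the alternatives the adjusted p was 0.0251 to 0.404 for somas, and 0.00879 to 0.366 for neurites. Under the block 17.4% of all genes were called lower and 19% higher in somas, and 18.1% and 17.7% in neurites. Of the Cfl1 windows 16.5% are shared with 2 other genes.

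Cfl2 (Entrez 12632, chr12:54858815-54862877), the cofilin known from muscle, had estimates above 0 where those of Cfl1 were below 0. Its level was 83.8 to 114 CPM in Ctrl somas and 89.0 to 142 CPM in MG132 somas, which overlapped. In neurites it was 104, 142 and 156.6 CPM in Ctrl and 157.0, 187 and 181 CPM after MG132, without overlap by a narrow margin. The log2 fold changes were 0.16 ± 0.21 (SE, edgeR adjusted p = 0.611) in somas and 0.38 ± 0.21 (SE, edgeR adjusted p = 0.206) in neurites, neither called. With the replicate block the neurite value was 0.40 and was called (adjusted p = 0.0464, over a range of 0.0464 to 0.695 for the alternatives). The Cfl1 to Cfl2 ratio per kilobase was 2.34 to 3.03 in Ctrl somas and 1.47 to 2.10 in MG132 somas. In neurites it was 3.46 to 4.13 in Ctrl and 1.90 to 2.31 after MG132. The ratio was thus lower in each MG132 library than in each Ctrl library of its fraction. Whether the responses of Cfl1 and Cfl2 differ was not tested.

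The β-thymosins could be followed only in part. Tmsb10 (Entrez 19240, chr6:72957347-72958748) had 5.53 to 11.3 CPM in Ctrl somas and 3.17 to 6.44 CPM in MG132 somas. In neurites it had 9.26 to 24.9 CPM in Ctrl and 9.35 to 17.7 CPM after MG132. Both pairs of groups overlapped, and the log2 fold changes of -0.67 ± 0.42 (SE) and -0.37 ± 0.41 (SE) were not called (edgeR adjusted p = 0.257 and 0.532). Of the Tmsb10 windows 32.8% are shared with 2 other genes. Tmsb4x (Entrez 19241, chrX:167207093-167213479) was listed at 0 in 11 of the 12 libraries and had 2 counts in Ctrl neurites replicate 3. A limit of 3 counts corresponds to 0.123 to 0.794 CPM in these libraries. Of its 694 windows 0% are shared with another gene's transcripts, a search that did not cover the rest of the genome. No level was read from it, since reads that align to several places are left out by the counting program's defaults and copies of the gene in the genome were not checked.

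Arpc2 (Entrez 76709, chr1:74236490-74268209), which forms the core of the Arp2/3 complex with Arpc4, had 108, 99.8 and 105 CPM in Ctrl somas. In MG132 somas it had 95.2, 108.5 and 125 CPM. In neurites it had 203.5, 224 and 342.5 CPM in Ctrl and 250.7, 279.5 and 328 CPM after MG132. The treatments overlapped in both fractions, with log2 fold changes of 0.073 ± 0.20 (SE, 95% interval -0.35 to 0.50, edgeR adjusted p = 0.825) and 0.16 ± 0.20 (SE, 95% interval -0.27 to 0.58, edgeR adjusted p = 0.599). Without Ctrl neurites replicate 3, the highest Ctrl library, the neurite value was 0.54 and was called (adjusted p = 0.0352, over a range of 0.0352 to 0.971). The Actb to Arpc2 ratio per kilobase was 5.03 to 5.32 in Ctrl somas and 1.99 to 2.15 in MG132 somas. In neurites it was 2.57 to 3.73 in Ctrl and 0.808 to 0.9005 after MG132, so that Arpc2 exceeded Actb per kilobase in the MG132 neurites.

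Srf (Entrez 20807, chr17:46546838-46558267), whose promoter stretch with 2 CArG boxes is printed above, moved against Actb in somas. It had 7.87, 5.77 and 7.61 CPM in Ctrl somas and 22.1, 12.5 and 14.2 CPM in MG132 somas, without overlap. Srf rose by 1.20 ± 0.34 on the log2 scale (SE, edgeR adjusted p = 0.0163), or 2.30-fold. The call was lost without MG132 somas replicate 1 (0.91, adjusted p = 0.0984) and without Ctrl somas replicate 2 (1.08, adjusted p = 0.0648), and over the alternatives the adjusted p ranged from 0.00628 to 0.0984. In neurites Srf had 18.3, 10.5 and 8.91 CPM in Ctrl and 7.76, 10.1 and 11.9 CPM after MG132, which overlapped. The log2 fold change there was -0.32 ± 0.34 (SE, edgeR adjusted p = 0.523).

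The fractions were compared for each response in the same model. For Srf the neurite response minus the soma response was -1.52 ± 0.48 (SE, 95% interval -2.54 to -0.49), with an edgeR adjusted p = 0.478. It was therefore not called, and the adjusted p was 0.182 with the replicate block, the lowest over the alternatives, whose highest was 1. Among the 8 tested members other than Actb 0 were called by edgeR or DESeq2, and 1 (Srf) had an unadjusted edgeR p under 0.05. Across all genes edgeR without the block called 0% in either direction, with 1000 genes at an unadjusted p under 0.05. With the replicate block edgeR called 47 genes higher and 43 lower, and DESeq2 called 38 higher and 20 lower.

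The members were then compared between neurites and somas. In Ctrl cultures the 9 tested members were each above 0 on the log2 scale, with a median of 0.73 against -0.04 over all genes. Arpc2, Cfl1 and Pfn1 were called higher in neurites, 3 of 9 beside 10.2% of all genes called higher and 4.65% called lower. Arpc2 was higher by 1.3 ± 0.20 on the log2 scale (SE, edgeR adjusted p = 4.04e-04), and Cfl1 by 0.97 ± 0.17 (SE, edgeR adjusted p = 0.0011). Groups did not overlap for 6 of the 9, beside 33.7% of all genes. Pfn1 was higher by 0.73 ± 0.19 (SE, edgeR adjusted p = 0.0154), a call lost without Ctrl somas replicate 1 or 3 or without Ctrl neurites replicate 3 (0.0712 to 0.0912). For Actb, whose mRNA is known from dendrites, the difference of 0.55 ± 0.18 (SE) was not called (edgeR adjusted p = 0.0575). With the replicate block Actb was called at 0.53 (adjusted p = 0.00519), as were Cfl2 at 0.475 (adjusted p = 0.0277) and Tmsb10 at 1.19 (adjusted p = 0.0131), making 6 of 9, beside 13.7% of all genes called higher and 9.28% lower under the block. Over the alternatives the adjusted p ranged from 0.00519 to 0.854 for Actb, 0.0277 to 0.957 for Cfl2 and 0.0131 to 0.333 for Tmsb10.

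After MG132 Arpc2, Tmsb10, Cfl1 and Cfl2 were called higher in neurites, 4 of 9 beside 11.4% of all genes called higher and 6.35% called lower. Arpc2 was higher by 1.38 ± 0.20 on the log2 scale (SE, edgeR adjusted p = 2.59e-04) and Cfl1 by 0.90 ± 0.17 (SE, edgeR adjusted p = 0.00201). Tmsb10 was higher by 1.56 ± 0.42 (SE, edgeR adjusted p = 0.0185) and Cfl2 by 0.70 ± 0.21 (SE, edgeR adjusted p = 0.0348). Groups did not overlap for 7 of the 9, beside 36.8% of all genes. The Tmsb10 and Cfl2 calls were lost without MG132 somas replicate 1 or 2 or MG132 neurites replicate 2 or 3. Without these libraries the adjusted p was 0.0513 to 0.0643 for Tmsb10 and 0.0539 to 0.13 for Cfl2. For Actb the value was 0.15 ± 0.18 (SE, 95% interval -0.24 to 0.54, edgeR adjusted p = 0.625). Srf was the only member below 0, at -0.71 ± 0.34 (SE, edgeR adjusted p = 0.165). With the replicate block Pfn1 (0.52, adjusted p = 0.0214) and Pfn2 (0.43, adjusted p = 0.0456) were called as well, beside 15.1% of all genes called higher and 11.7% lower under the block. Over the alternatives the adjusted p was 0.0214 to 0.736 for Pfn1 and 0.0456 to 0.998 for Pfn2. The comparisons in this and the preceding paragraphs share libraries, so their values stand side by side without a test of likeness.

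The scale between fractions rests on the normalization. With total counts in place of TMM factors the median of all genes was -0.70 in Ctrl and -0.86 after MG132, and 0 members were called higher in either. On that scale 324 genes were called higher and 2736 lower in Ctrl, against 1452 and 659 with TMM factors. Actb then stood at -0.094 in Ctrl and -0.65 after MG132. Relative to the median of all genes, 9 of 9 members were above it in Ctrl and 8 of 9 after MG132. Actb was higher by 0.59 (TMM factors) and 0.61 (total counts) in Ctrl. A change of scaling shifts all genes and their median by nearly the same amount. The counts were thus bound to be alike under each of the 4 scalings and are no check on that choice. Astrocyte markers summed to 17620 to 23820 CPM in Ctrl neurites against 3378 to 4586 CPM in Ctrl somas, with 3 of 7 called higher and 1 lower. Oligodendrocyte markers summed to 4983 to 21990 CPM in Ctrl neurites and 1430 to 6352 CPM in Ctrl somas, which overlapped. Of these 7 genes 1 was called higher and 0 lower, 3 were below 0 and the median log2 ratio was 0.069. The part of the astrocyte and oligodendrocyte markers in the difference between fractions was not tested.

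**Figure D4:**
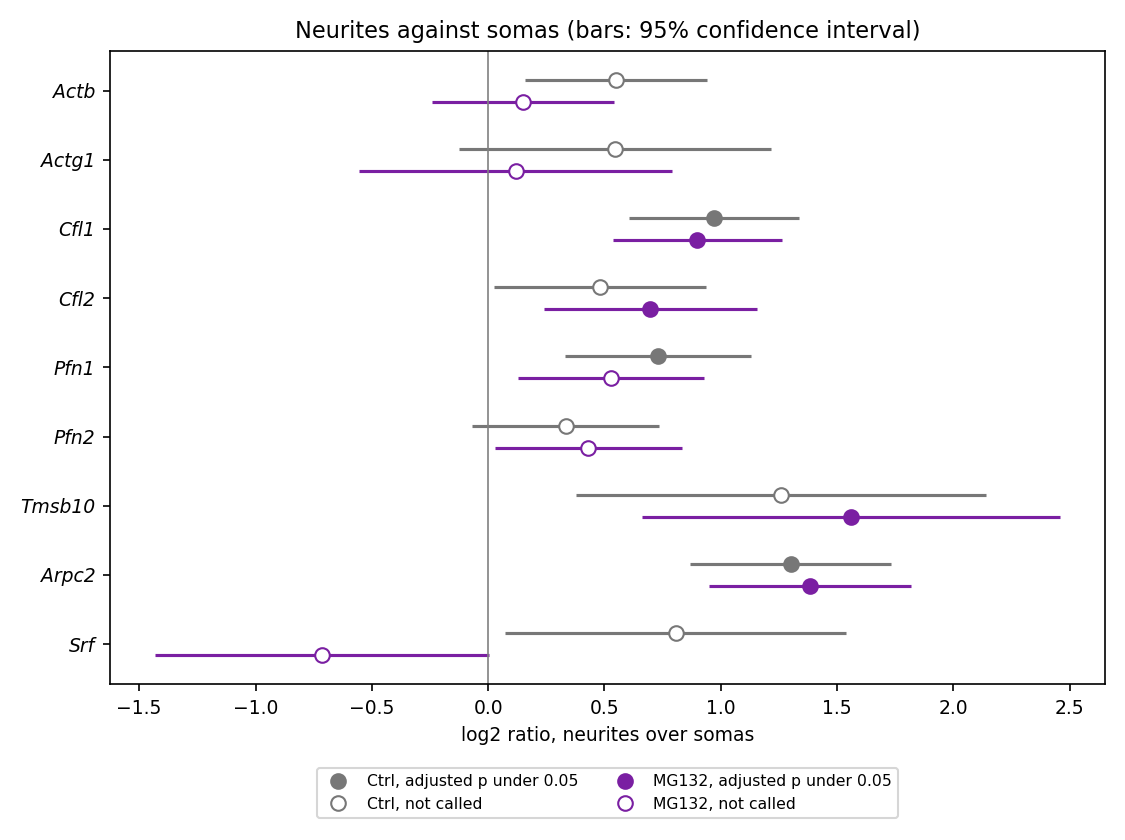
Log2 ratio of neurites over somas for the 9 tested genes in Ctrl and MG132 cultures, with bars for the 95% confidence interval and filled circles for calls (adjusted p under 0.05). Ctrl values lie between 0.33 and 1.3 with TMM factors, Srf lies at -0.71 after MG132, and with total counts (not drawn) Actb, Actg1, Cfl2 and Pfn2 fall below 0 in both and Pfn1 after MG132.

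Stricter thresholds left few of the members, counted with MG132 over the 8 other than Actb. In somas 0 were lower and 0 higher at an adjusted p under 0.01 (edgeR), beside 5.72% and 9.52% of all genes. Adding a 1.7-fold change gave 5.58% and 9% of all genes, and asking for 1.7 on the log2 scale gave 2.43% and 2.11%. In neurites 1 (Pfn1) was lower and 0 were higher under 0.01, beside 5.67% and 9.76% of all genes. With the 1.7-fold change 0 were called, beside 5.44% and 9.25%, and with 1.7 on the log2 scale 0, beside 2.19% and 2.44%. Between fractions in Ctrl, Arpc2 and Cfl1 were higher under 0.01 with or without the 1.7-fold change, beside 6.3% and 6.15% of all genes (1.3% and 1.28% lower). On the log2 scale 0 remained, beside 2.12% higher and 0.338% lower. After MG132 Arpc2 and Cfl1 were again higher, beside 7.2% and 6.92% (2.16% and 2.08% lower), and on the log2 scale 0 remained beside 2.04% and 0.508%.

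Other genes of actin regulation were read beside the shares of all genes called, which were 15.5% higher and 11.9% lower in somas and 14.7% higher and 12.3% lower in neurites. Of 111 tested genes in 8 lists, 13 rose and 14 fell in somas, and 17 rose and 23 fell in neurites, with medians of -0.02 and -0.16. With the replicate block the counts were 21 and 25 in somas and 19 and 34 in neurites, beside 19% and 17.4% of all genes in somas and 17.7% and 18.1% in neurites. In somas 0 of the 9 other Arp2/3 subunits were called by edgeR. In neurites Actr3 rose, by 0.58 ± 0.20 on the log2 scale (SE, edgeR adjusted p = 0.0466), while Arpc1a, Arpc3 and Arpc4 fell, with log2 fold changes of -0.63, -0.71 and -0.70. These 4 genes were named after their values were seen.

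Among the 10 genes of filament turnover and monomer binding 1 rose and 3 fell in somas, and 0 rose and 3 fell in neurites, with medians of -0.45 and -0.59. Among the 10 cofilin regulators 1 rose and 0 fell in somas, and 2 rose and 1 fell in neurites. Nucleation, elongation and capping genes gave 4 higher and 1 lower of 24 in somas, and 4 higher and 2 lower in neurites. Capza1, a filament capping protein, rose in somas by 1.20 ± 0.41 on the log2 scale (SE), from a mean of 5.86 to 13.4 CPM. In neurites it went from 12.44, 15.88 and 14.97 CPM to 17.34, 21.16 and 26.28 CPM. Wasl, the N-WASP activator of the Arp2/3 complex, rose in neurites by 1.54 ± 0.19 (SE), from 40.5, 49.9 and 43.7 CPM to 157, 108 and 126 CPM. In somas it went from 78.59, 60.55 and 76.78 CPM to 142.2, 115.8 and 131.9 CPM.

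Of 37 genes for filament side binding, cross-linking and myosin, 4 rose and 7 fell in somas and 6 rose and 11 fell in neurites. Zyx, the focal adhesion protein zyxin, rose by 1.75 ± 0.27 in somas (SE), from 11.9, 15.7 and 7.94 CPM to 38.0, 41.0 and 40.7 CPM. In neurites it went from 11.91, 19.57 and 20.18 CPM to 31.25, 42.41 and 36.75 CPM. Ezr, which links filaments to the membrane as ezrin, rose by 1.64 ± 0.19 in neurites (SE), from a mean of 241.8 to 753 CPM. In somas it went from 190.8, 171.9 and 175.8 CPM to 195.8, 326.2 and 296.8 CPM. Lasp1, a LIM and SH3 protein that binds actin, fell in both fractions, with log2 fold changes of -1.38 ± 0.26 in somas and -1.67 ± 0.26 in neurites (SE). Add3, the adducin that caps filaments at the membrane skeleton, fell by 1.46 ± 0.19 in somas (SE), from a mean of 302.5 to 109.8 CPM. In neurites it went from 512, 458.7 and 658.7 CPM to 252.8, 213.8 and 221.4 CPM. Coro1a, a coronin best known from leukocytes, fell by 2.37 ± 0.43 in neurites (SE), from a mean of 21.6 to 4.19 CPM. In somas it had 13.74, 8.095 and 9.928 CPM in Ctrl and 7.03, 10.71 and 4.387 CPM after MG132, which overlapped. The summed microglia markers were lower after MG132 in both fractions, and their part in the Coro1a values was not tested.

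Of the muscle-type actins 1 of 4 was tested. Acta2, the smooth muscle actin, had 111, 78 and 31 counts in Ctrl somas and 7, 0 and 1 counts in MG132 somas, and it fell by 4.80 ± 0.78 on the log2 scale (SE, edgeR adjusted p = 4.59e-04). In neurites it fell by 2.19 ± 0.63 (SE), from a mean of 12.3 to 2.63 CPM. Fibroblast and vascular markers summed to 202 to 275 CPM in Ctrl somas and 62.5 to 93.6 CPM in MG132 somas, and their part in this fall was not tested.

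SRF cofactors and targets were not uniform. Of 5 tested cofactors 0 were called in somas by edgeR, and 1 fell in neurites. The MRTF cofactors were not called: Mrtfa stood at 0.68 ± 0.32 (SE) in somas and 0.23 ± 0.33 in neurites, and Mrtfb at 0.82 ± 0.33 and 0.195 ± 0.34 (edgeR adjusted p from 0.0825 to 0.713). Elk3, another SRF partner, fell by 2.06 ± 0.46 in neurites (SE), from a mean of 34.2 to 7.84 CPM. Of the 15 SRF target genes 3 rose and 2 fell in somas, and 4 rose and 1 fell in neurites, with medians of 1.01 and 1.22. The shares of all genes called are those given above for the wider lists. The genes that rose were immediate early genes, which answer to other pathways as well. Arc rose by 2.81 ± 0.63 in somas and 2.61 ± 0.66 in neurites (SE). Egr1 rose by 1.79 ± 0.31 in somas and 2.17 ± 0.32 in neurites (SE). Junb rose by 0.99 ± 0.29 in somas, and Ier2 by 2.24 ± 0.77 in neurites from 1, 9 and 11 counts to 16, 187 and 17 counts. Fos rose by 1.26 ± 0.43 in neurites (edgeR adjusted p = 0.0399) and was not called in somas, at 1.001 ± 0.42 (edgeR adjusted p = 0.0879).

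Other SRF targets were not called or fell. Of all 15, 3 were below 0 in somas and 2 in neurites, beside 53% and 56.4% of all genes. Vcl, which holds a CArG box in the stretch printed above, was not called, at 0.19 ± 0.23 in somas and 0.22 ± 0.24 in neurites (SE). Cnn2, printed beside it, fell by 4.449 on the log2 scale in somas (SE 0.76), from 49, 39 and 38 counts to 3, 0 and 4 counts, and was not called in neurites, at -0.48 ± 0.61 (SE, edgeR adjusted p = 0.596). Ccn2, a matrix protein gene, fell in both fractions, with log2 fold changes of -2.31 ± 0.77 in somas and -2.36 ± 0.78 in neurites (SE).

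**Figure D5:**
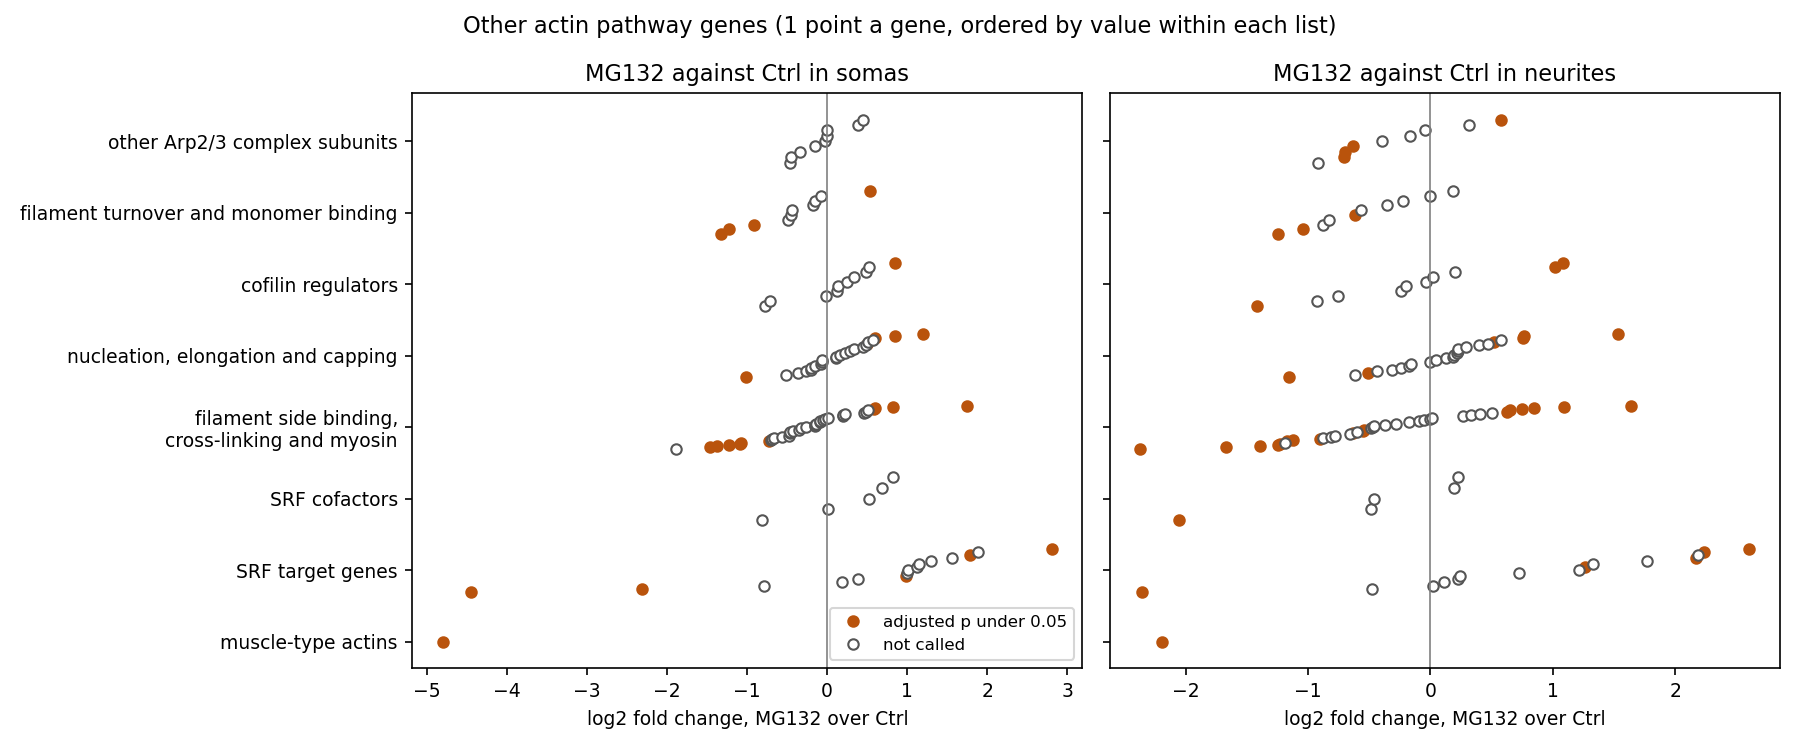
Log2 fold change of MG132 over Ctrl for the 111 other actin pathway genes in somas and neurites, 1 point a gene, by list, filled where called (adjusted p under 0.05). Points lie on both sides of 0 in the larger lists, with 13 higher and 14 lower calls in somas and 17 and 23 in neurites.

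The genes most like Actb over the 12 libraries were found by Pearson's r of log2(CPM + 1) among the 8223 genes that averaged 10 CPM or more. They were Ro60 (r = 0.979), Xiap (r = 0.974), Ahnak (r = 0.973), Rassf4 (r = 0.969) and Rassf2 (r = 0.967). Of the members Pfn1 came closest, at r = 0.834 and rank 371, followed by Cfl1 at r = 0.628 and rank 1344, whereas Arpc2 had r = 0.165. Xiap, an inhibitor of caspases, had means of 84.7 CPM in Ctrl somas, 51.8 CPM in MG132 somas, 108 CPM in Ctrl neurites and 51.4 CPM in MG132 neurites. For Srf the closest were Otub1 (r = 0.916), Dda1 (r = 0.862), Numb (r = 0.847), Rab11fip3 (r = 0.828) and Ube3b (r = 0.817). The 12 libraries share 4 groups and the same normalization, so these values describe likeness of pattern only.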

How the data were processed

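The authors deposited 1 table of raw read counts a library, in whole numbers by gene, without normalization or a gene filter. The authors trimmed reads with Trimmomatic (0.38.0), aligned them to mm10 with STAR, counted them with featureCounts (2.0.1) at default parameters and tested them with DESeq2 (2.11.40.7, as the submitters' processing notes number it). Libraries were made from polyA-selected RNA.

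Groups and replicate numbers came from the sample titles. Symbols were found for 25275 of the 27179 Entrez identifiers (93.0%), and gene coordinates and promoters came from RefSeq (GRCm38.p6). Transcript lengths and shared windows of 75 bases came from GENCODE transcripts. No 2 of the 66 pairs of libraries held identical counts. The analysis used edgeR 4.0.16 under R 4.3.3 (filterByExpr, TMM factors, glmQLFTest), as 1 model with 4 group means over 12 libraries. SE was taken from the log2 fold change and the F statistic of its test (its size over the root of F). Alternatives were other scalings, DESeq2 1.42.0, no filter, only the groups compared, a replicate block, leaving out each library, and stricter thresholds.

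Same-numbered libraries deviated together (correlation of deviations from group means 0.207 to 0.286 in each pair, each highest with its own number), so the replicate numbers in the titles pair the samples. The main test did not use this pairing, and the replicate block was an alternative to it.

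Named pathway genes were, for each MG132 comparison, the 5 called genes that rose most and the 5 that fell most at a mean of 1 CPM or more, plus Mrtfa, Mrtfb, Egr1, Fos and Vcl. A gene named by this rule for a single fraction may also have moved in the other. Of 116 listed pathway genes Testk1 was not matched. Members and lists were chosen with earlier results of these data known. The fit was tested on simulated data.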

Additional observations from a re-analysis of the deposited data

How the results depend on the processing

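Of 303 member values under alternatives other than leaving out a library, 254 kept their direction and side of the threshold, 13 lost a call, 19 gained one and 17 reversed. With alternatives that keep a scaling between libraries, 1 of 213 reversed (the Cfl1 difference between responses, 0.0502 without the count filter) and 1 lost its call. The cause was not tested.

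Counts of members called with MG132 are over the members other than Actb, which prompted the list and carries no test here. With total counts 0 were called lower or higher in somas and 0 in neurites. Between fractions, members called were then 0 higher in Ctrl, and 0 higher and 1 lower after MG132. Of all genes 7.31% were then called lower and 7.56% higher in somas, and 9.42% and 6.63% in neurites. Between fractions 2.28% were called higher and 19.3% lower in Ctrl, and 2.11% and 30.6% after MG132. Pathway calls were then 3 higher in somas, and 5 higher and 15 lower in neurites. Neurites against somas reversed in Ctrl for Actb (-0.0936), Actg1 (-0.119), Cfl2 (-0.146) and Pfn2 (-0.35), and after MG132 for Actb (-0.654), Actg1 (-0.673), Cfl2 (-0.0885), Pfn1 (-0.275) and Pfn2 (-0.384). The neurite response of Arpc2 (-0.0283) and the differences between responses of Arpc2 (-0.0731) and Pfn2 (-0.0337) also reversed. Leaving the gene with the most counts and mitochondrial genes out of the totals gave 2 higher and 1 lower member between fractions after MG132, beside 6.07% and 22% of all genes. It gave 8 higher pathway genes in somas, beside 12.8% of all genes. Reversed values were -0.286 for Actb and -0.299 for Actg1 after MG132, -0.132 for Pfn2 in Ctrl and -0.0247 for Arpc2 in somas.

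Without the count filter 0 of the 9 members other than Actb were lower in somas, beside 8.61% of all genes. DESeq2 called 5 members higher in Ctrl neurites, beside 10.6% of all genes. The replicate block gave 1 member higher in MG132 neurites, 6 higher in Ctrl neurites and 21 higher and 25 lower pathway genes in somas, and changed no member call beyond those printed in the report.

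At an adjusted p under 0.01 members called were 0 lower and 0 higher in somas and 2 higher between fractions after MG132. Pathway calls were then 5 higher and 9 lower in somas and 11 and 12 in neurites. The shares of all genes at each of these thresholds are given with the stricter thresholds above. Adding a 1.7-fold change gave 0 lower and 0 higher in somas, 0 lower in neurites and 2 higher between fractions after MG132. Pathway calls were then 5 higher and 9 lower in somas and 9 and 11 in neurites. With 1.7 on the log2 scale 0 members were called in any comparison by edgeR, and pathway calls were 3 and 2 in somas and 2 and 2 in neurites. DESeq2 at 0.05 called 1 higher and 2 lower in somas and 2 lower in neurites among the members other than Actb. Of all genes it called 14% higher and 14.9% lower in somas, and 14.4% and 14.7% in neurites.

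Leaving out each library in turn, members other than Actb called with MG132 ranged from 0 to 1 lower and 0 to 1 higher in somas. In neurites they ranged from 0 to 2 lower and 0 to 1 higher. Between fractions 2 to 5 members were called higher in Ctrl and after MG132. Of all genes 7.67% to 9.31% were called lower and 11.3% to 13.2% higher in somas. In neurites these shares were 6.96% to 9.66% and 11.6% to 15.5%. Between fractions 6.47% to 9.21% were called higher in Ctrl and 8.04% to 10.6% after MG132. Pathway calls ranged from 7 to 12 higher and 10 to 15 lower in somas, and 11 to 17 higher and 12 to 23 lower in neurites. Ranges that crossed 0 were those of Actg1 (-0.262 to 0.162), Cfl2 (-0.0846 to 0.297) and Arpc2 (-0.0291 to 0.16) in somas and Srf (-0.429 to 0.0326) in neurites. For the difference between responses they were those of Cfl1 (-0.169 to 0.158), Pfn1 (-0.315 to 0.0157), Pfn2 (-0.074 to 0.303), Tmsb10 (-0.0158 to 0.673) and Arpc2 (-0.0613 to 0.464).

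With 3 libraries a group, a log2 fold change with MG132 had a median SE of 0.36 over all genes in each fraction, and the difference between responses one of 0.51.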

Other observations

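Other actin pathway genes were also compared between neurites and somas. In Ctrl cultures 26 of 111 were called higher in neurites and 1 lower, with a median log2 ratio of 0.32, beside 10.2% of all genes called higher and 4.65% called lower. After MG132 the counts were 29 higher and 2 lower, with a median of 0.12, beside 11.4% of all genes called higher and 6.35% called lower. Of the 9 other Arp2/3 subunits 5 were higher in Ctrl neurites and 4 after MG132, and 0 were lower (edgeR). Of the 15 SRF target genes 1 was higher and 0 were lower in Ctrl neurites, with a median of -0.59. These ratios rest on TMM factors, and the shift of the all-gene median with total counts applies to them too. Of the 7 astrocyte markers 3 were called higher in neurites and 1 lower in Ctrl, with a median of 0.078. After MG132 4 were called higher and 1 lower, with a median of 0.77.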
